A study of Homo sapiens with 8 samples.

Results

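The genes of the secondary (specific) and tertiary (gelatinase) granules of neutrophils were examined for H3K4me3 and H3K27ac peaks in HL-60 cells. They comprised 10 named genes (LTF, LCN2, CAMP, OLFM4, CEACAM8, CRISP3, TCN1, MMP8, MMP9 and ARG1) of 20136 protein-coding genes on hg19, named one by one under a rule that uses no measured value, though with earlier results of these data known. HL-60 is an established myeloid leukemia cell line, labeled as acute promyelocytic leukemia from peripheral blood. The cells of the ATRA group received 1 µM all-trans retinoic acid (ATRA) in ethanol for 4 days, and those of the control group received the same amount of ethanol. Each of the 2 marks was profiled by ChIP-seq in 2 replicates per group, which gave 8 libraries of peaks. All libraries came from this single line, and nothing in the labels states that the replicates were separate cultures, so the spread between them may be technical.

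Neutrophils fill their granules in waves while they mature. Primary granule proteins are made first, at the promyelocyte stage, followed by the proteins of the secondary granules at the myelocyte and metamyelocyte stages and by those of the tertiary granules later. C/EBPε and its relatives, PU.1 and GFI1 are known regulators of these waves. HL-60 cells are known to carry primary granules and to make little secondary granule protein when they are induced to differentiate. H3K4me3 mainly lies at active promoters, and H3K27ac lies at active promoters and enhancers.

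The 10 genes showed almost no H3K4me3 at their start sites in either group, whereas H3K27ac was found near several of them, with the greater part in the ATRA-treated cells. H3K27ac covered more of the region in both ATRA libraries than in either control library at 4 of the 10 (LCN2, CAMP, OLFM4 and MMP9). This share was near the 30.2% of all genes called the same way, and at LCN2 the ranges overlapped per Mb of peaks. CRISP3 and ARG1 had no peak of either mark in any library. The values behind these statements follow, after the promoter sequences.

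The libraries held between 13241 and 16487 H3K4me3 peaks, which covered 47.7 to 63.2 Mb. The ATRA replicates of H3K27ac held 28200 and 39332 peaks with a covered length of 64.8 and 86.1 Mb. Those of the control held 15457 and 29616 peaks, which covered 28.8 and 54.0 Mb. Control replicate 1 of H3K27ac thus had the fewest peaks of that mark. The mean covered length was 1.82 times as high in the ATRA cells for H3K27ac and 1.17 times as high for H3K4me3, which are log2 ratios of 0.87 and 0.22. Read depth is unknown, and its part in these totals was not tested. For both marks, the study's text and the deposited files differ in which group has more peaks. Each direction given here rests on the labels as deposited. The labels were checked on 4 markers of myeloid differentiation. For H3K27ac, 3 of them (ITGAM, CD38 and CSF3R) were higher in both ATRA libraries, against 30.2% of all genes, and FPR1 had overlapping ranges. Because so many genes were called higher, this check cannot settle the labels. H3K27ac covered 8679 and 12888 bp of the region of ITGAM (CD11b) in the ATRA libraries, and 0 and 1889 bp in the control libraries. Both monocyte markers, CD14 and CSF1R, were also higher. Among markers of other lineages, the T cell gene CD3E was higher, with 7270 and 12073 bp in the ATRA libraries and 0 and 584 bp in the control libraries, and GATA1 had overlapping ranges. Of 6 myeloid genes, 4 had H3K4me3 within 1 kb of the start in all 4 libraries, against 50.6% of all genes. The other 2 (ELANE and AZU1) had it in none, against 46.1%. For H3K27ac, 3 had it there in all 4 libraries, against 32.8%, and 1 (ELANE) in none, against 49.2%. MPO had both marks at its start in all 8 libraries.

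The promoters of 9 of the 10 genes (all but MMP9) were matched letter by letter between RefSeq (GRCh38.p14) and hg19 at the start of the canonical transcript. Sequences of 5 are shown because they span the outcomes described below. CAMP had H3K27ac within 1 kb of the start in both ATRA libraries and in control replicate 2, OLFM4 had it in ATRA replicate 2 alone, LTF had it only at a distance, and CRISP3 and ARG1 had no peak. Each runs 5′ to 3′ and holds the bases before the start that lie in no annotated exon. Capitals mark matches to any of 7 motifs, searched on both strands. They were the C/EBP motif spelled TTNNGCAA, the PU.1 motif spelled GAGGAA, the motif of the GATA factors spelled AGATAA, a pair of partial sites of the retinoic acid receptor spelled AGGTCA and GGTTCA, the TATA box spelled TATAAA and the GC box spelled GGGCGG. No match overlapped another.
CAMP, chr3:48264735-48264836, plus strand: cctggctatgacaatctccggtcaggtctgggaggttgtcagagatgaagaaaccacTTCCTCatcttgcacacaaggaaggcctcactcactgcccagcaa
OLFM4, chr13:53602698-53602947, plus strand: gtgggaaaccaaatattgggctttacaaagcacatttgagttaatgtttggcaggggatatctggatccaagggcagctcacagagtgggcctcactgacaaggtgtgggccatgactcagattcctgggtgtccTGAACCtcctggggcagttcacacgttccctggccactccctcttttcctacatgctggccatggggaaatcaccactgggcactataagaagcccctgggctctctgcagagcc
LTF, chr3:46506396-46506645, minus strand: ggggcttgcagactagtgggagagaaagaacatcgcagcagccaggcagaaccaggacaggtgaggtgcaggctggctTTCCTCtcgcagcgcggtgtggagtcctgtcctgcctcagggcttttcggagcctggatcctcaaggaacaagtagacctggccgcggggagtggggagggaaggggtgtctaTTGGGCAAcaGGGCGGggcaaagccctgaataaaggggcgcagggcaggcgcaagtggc
CRISP3, chr6:49712151-49712351, minus strand: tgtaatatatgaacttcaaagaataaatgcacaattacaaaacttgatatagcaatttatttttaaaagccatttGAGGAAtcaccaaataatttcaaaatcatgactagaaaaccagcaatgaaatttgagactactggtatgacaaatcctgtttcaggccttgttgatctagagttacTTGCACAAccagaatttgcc
ARG1, chr6:131894116-131894333, plus strand: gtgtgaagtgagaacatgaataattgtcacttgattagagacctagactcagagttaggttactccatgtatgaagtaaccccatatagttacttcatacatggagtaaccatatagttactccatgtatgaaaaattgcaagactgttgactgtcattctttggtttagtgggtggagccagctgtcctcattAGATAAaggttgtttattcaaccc

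The capitals in CAMP are 1 PU.1 match on the opposite strand, and those in OLFM4 are 1 match to the receptor site GGTTCA, also on the opposite strand. LTF has a PU.1 match on the opposite strand, followed by a C/EBP match and a GC box. CRISP3 has a PU.1 match and, nearer to the start, a C/EBP match on the opposite strand. The capitals in ARG1 are a GATA match. Over the full 250 bases before the start, the C/EBP motif was found in 5 of the 9 promoters (LTF, LCN2, CRISP3, TCN1 and MMP8), against 7.09% of the promoters of all protein-coding genes. The PU.1 motif was found in 4 (LTF, CAMP, CRISP3 and MMP8), against 23.2% of all. The GC box was found in 2 (LTF and CEACAM8), against 58.7% of all, and the TATA box in 2 (MMP8 and ARG1), against 9.41%. For the GATA motif the number was 1 (ARG1), against 6.62%. The receptor sites AGGTCA and GGTTCA were found in 0 and 1 of the 9 (OLFM4), against 9.98% and 6.35%. A match of letters is a description and does not show binding, and the C/EBP matches stood both in LCN2 and TCN1, which had H3K27ac near the start in 1 ATRA library each, and in CRISP3 and MMP8, which had none.

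The promoters of these genes are poor in CpG dinucleotides. Over the 300 bases around the start, the ratio of observed to expected CpG ranged from 0.0395 in CAMP to 0.481 in LTF, with a median of 0.134. The median over all protein-coding genes was 0.773. It was 0.874 for the 10648 genes with H3K4me3 within 1 kb of the canonical start in all 4 libraries and 0.434 for the 8871 genes with it in none. Of the 5624 genes whose ratio was at or below that of LTF, 84.3% had no H3K4me3 at the start in any library and 10.6% had it in all 4. For the granule genes the number without it was 8 of 9, which is close to the share among these genes. MMP9, which was not matched, is not in that count.

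**Figure D1:**
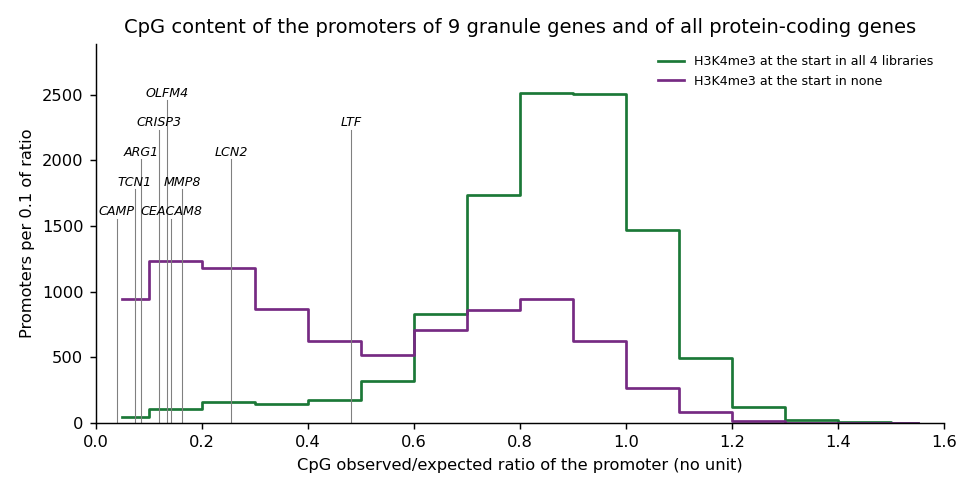
Number of promoters (vertical axis) by the ratio of observed to expected CpG in the 300 bases around the canonical start (horizontal axis, bins of 0.1), for genes with H3K4me3 at the start in all 4 libraries (green) and in none (purple). Gray lines mark the 9 granule genes, which sit between 0.0395 and 0.481, below the peak of the green curve.

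H3K4me3 was absent from nearly all start sites of the 10 genes. A start site (TSS) was counted as marked when any peak reached within 1 kb of the 5′ end of the annotated gene. By this measure 1 gene was marked in ATRA replicate 1 and 0 in each of the other 3 libraries, whereas the percentages over all genes were 52.7, 52.4, 53.0 and 51.0 in ATRA replicates 1 and 2 and control replicates 1 and 2. No granule gene was marked in all 4 libraries, against 50.6% of all genes, and 9 of 10 were marked in none, against 46.1%. Gains of H3K4me3 at the TSS (both ATRA libraries and no control library) numbered 0 of 10, against 0.268% of all genes, and losses (the reverse) 0 of 10, against 0.0993%. Over the gene body and 10 kb on each side, 7 of the 10 regions had no H3K4me3 peak in any library, against 31.6% of all. With the start of the canonical transcript in place of the 5′ end, which lies far inside the annotated gene in LTF and ARG1, the number marked in none was again 9.

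The gene that was marked was CEACAM8, which codes for CD66b, a surface protein of granulocytes that is stored in secondary granules. A peak of 1390 bp ran from −209 to +1180 bp of its canonical start in ATRA replicate 1. The region had 0 bp under H3K4me3 peaks in ATRA replicate 2 and in both control libraries, where the nearest peaks were 65596, 170496 and 171247 bp away. The gain was therefore seen in 1 of 2 ATRA libraries.

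LCN2 and MMP9 were the only other members with H3K4me3 in their regions, and most of it lay at neighboring genes. The LCN2 region had 4082 and 3923 bp in the ATRA libraries and 4407 and 3803 bp in the control libraries, and the ranges overlapped. All of it came from a peak that began 9594 to 9894 bp past the LCN2 start and covered the TSS of BBLN. The MMP9 region had 2419 and 804 bp in the ATRA libraries and 2305 and 574 bp in the control libraries, also with overlapping ranges. In 3 of the 4 libraries a peak in this region reached the TSS of SLC12A5, which is downstream of MMP9. ATRA replicate 1 and control replicate 1 each had a further peak, of 549 and 521 bp, at −4183 to −3635 bp and at −4179 to −3659 bp of the MMP9 start. These small peaks were alike in position in the 2 groups and were seen only in the libraries numbered 1.

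No region was higher in both ATRA libraries for H3K4me3, against 27.9% of all genes, and none was lower, against 2.64%. The median log2 ratio of the covered lengths, with 1000 bp added to each mean, was 0 for the 10 genes and 0.04 for all genes. The 0 comes from the 7 regions without a peak.

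**Figure D2:**
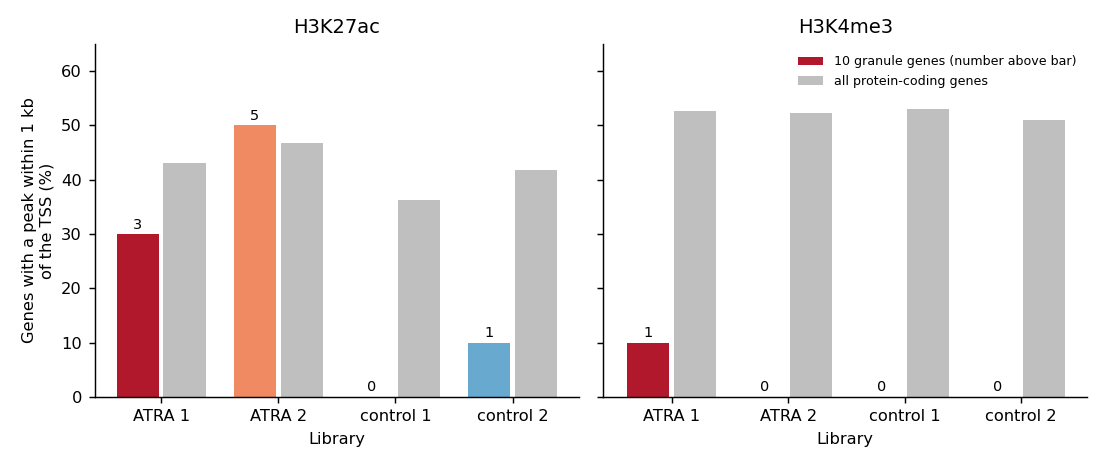
Percentage of genes with a peak within 1 kb of the TSS in each library, for the 10 granule genes (colored bars, with the number of genes above each) and for all protein-coding genes (gray). The granule genes lie below all genes in each library except ATRA replicate 2 of H3K27ac, where 5 of 10 were marked against 46.8%.

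H3K27ac at the start sites differed more between the groups. The TSS was marked at 3 granule genes in ATRA replicate 1 (LCN2, CAMP and MMP9) and at 5 in ATRA replicate 2 (CAMP, OLFM4, MMP9, CEACAM8 and TCN1). It was marked at 0 in control replicate 1 and at 1 in control replicate 2 (CAMP). The percentages over all genes were 43.1 and 46.8 in the ATRA libraries and 36.2 and 41.9 in the control libraries. CAMP and MMP9 were marked in both ATRA libraries, and MMP9 alone was a gain (both ATRA libraries and no control library), that is 1 of 10 against 2.56% of all genes. No granule gene was marked in all 4 libraries, against 32.8% of all, 4 (LTF, CRISP3, MMP8 and ARG1) were marked in none, against 49.2%, and 0 lost the mark, against 0.268%. The smallest p that an exact permutation test (two-sided) allows for 2 libraries against 2 is 0.33, no other test was run on single genes, and the calls in this text say only whether the ranges of the 2 groups overlap.

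Both genes with H3K27ac at the start in each ATRA library lacked H3K4me3 there. Among all protein-coding genes, 8186 had H3K27ac at the TSS in both ATRA libraries, and 303 of them (3.70%) had no H3K4me3 at the TSS in either ATRA library. CAMP and MMP9 belong to these 303. In the control libraries the corresponding number was 94 of 6880 genes (1.37%), and no granule gene was among the 6880.

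Over the gene body and 10 kb on each side, H3K27ac was present at 6 and 8 of the 10 genes in the ATRA libraries and at 6 and 6 in the control libraries, against 62.8%, 68.6%, 54.1% and 63.6% of all genes. The summed length over the 10 regions was 32576 and 39574 bp in the ATRA libraries and 7366 and 15363 bp in the control libraries. Per Mb of all H3K27ac peaks in the library, it was 502 and 459 bp in the ATRA libraries and 256 and 285 bp in the control libraries, so the sums of the 2 groups did not overlap on either scale. The largest parts came from different genes in the ATRA replicates. LCN2, whose region includes the peak at the BBLN start, gave 13199 and 3681 bp, and CEACAM8 gave 350 and 11519 bp. In the control libraries LCN2 gave 2451 and 1516 bp and CEACAM8 377 and 3013 bp. A longer peak in bulk chromatin may come from more cells that carry the mark or from more mark per cell, and these cannot be told apart.

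The region was higher in both ATRA libraries at 4 of the 10 genes, against 30.2% of all genes, so the share of calls was near that of all genes. It was lower at none, against 2.86%, and 2 (CRISP3 and ARG1) had no peak in any library, against 27.4%. Per Mb of peaks, 3 genes (CAMP, OLFM4 and MMP9) were higher, against 12.8% of all, and 2 (LTF and TCN1) were lower, against 18.5%. The median log2 ratio was 0.82 for the 10 genes and 0.18 for all genes.

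**Figure D3:**
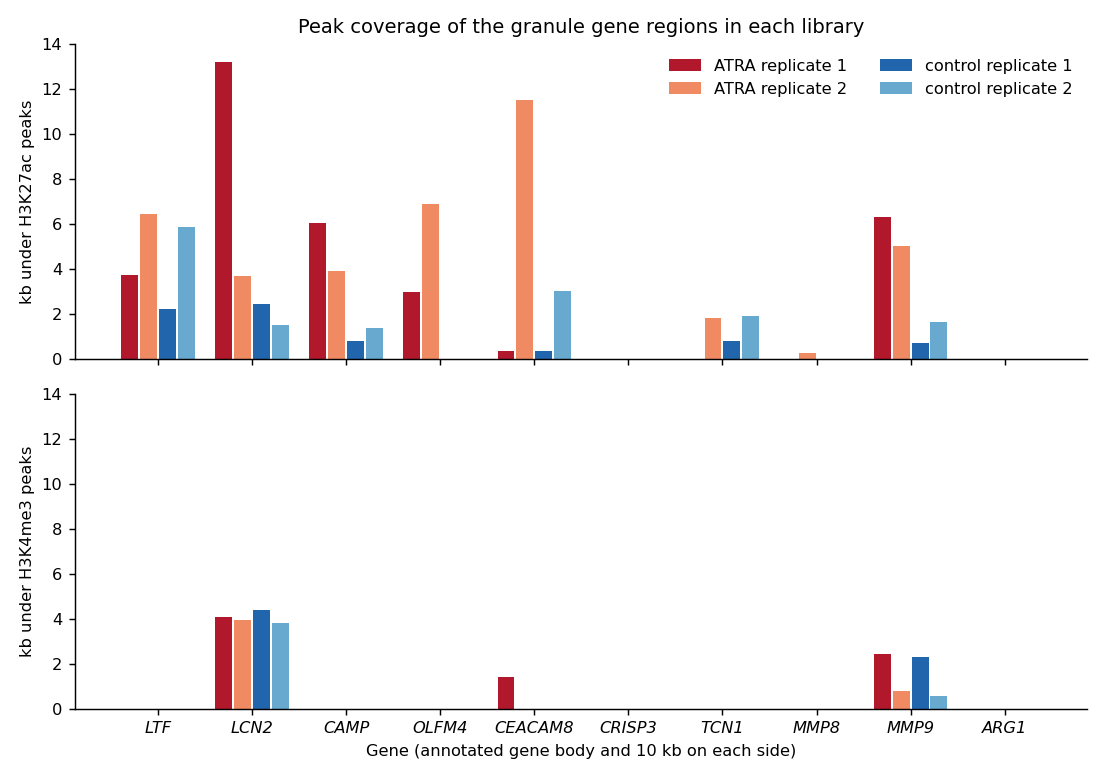
Length under H3K27ac peaks (top) and H3K4me3 peaks (bottom), in kb, over the annotated gene body and 10 kb on each side of each granule gene, one bar per library. H3K27ac bars of both ATRA libraries (red and orange) stand above both control bars (blue) at LCN2, CAMP, OLFM4 and MMP9, and CRISP3 and ARG1 have no bar.

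OLFM4 (chr13, 53602948 to 53626192, plus strand) codes for olfactomedin 4, a glycoprotein of the secondary granules in a subset of neutrophils. Its region had 2979 and 6891 bp under H3K27ac peaks in the ATRA libraries and 0 bp in each control library. It was the only granule gene whose control libraries were both at 0 while both ATRA libraries were marked. The difference of the means was 4935 bp, with means of 4935 ± 2766 bp (SD, n = 2) and 0 bp, and without ATRA replicate 2 it was 2979 bp. Both ATRA libraries had a long peak upstream of the gene, of 10324 bp in ATRA replicate 1 (−17345 to −7022 bp of the start) and 11443 bp in ATRA replicate 2 (−19709 to −8267 bp), the greater part of which lay beyond the 10 kb counted. In the control libraries the nearest H3K27ac peaks to the start were 375227 and 81123 bp away. ATRA replicate 2 had 3 further peaks, the nearest of which ended 410 bp before the start, whereas ATRA replicate 1 had none within 7022 bp. The upstream peak was thus shared by the ATRA replicates, and the mark at the start was not.

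CAMP (chr3, 48264837 to 48266981, plus strand) codes for the precursor of the antimicrobial peptide LL-37. Its region had 6027 and 3901 bp in the ATRA libraries and 810 and 1404 bp in the control libraries, and the groups did not overlap. The means were 4964 ± 1503 bp and 1107 ± 420 bp (SD, n = 2), a difference of 3857 bp. A peak over the gene ran from +58 to +2324 bp of the canonical start in ATRA replicate 1 and from +74 to +2140 bp in ATRA replicate 2, with almost the same ends. Control replicate 2 had a shorter peak there, of 859 bp from −10 to +848 bp, and control replicate 1 had none. A second peak upstream ran from −3568 to −1332 bp and from −2223 to −994 bp in the ATRA libraries, and control replicate 1 had a peak of 404 bp inside it.

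MMP9 (chr20, 44637547 to 44645200, plus strand) codes for gelatinase B, the protease that names the tertiary granules. Its region had 6297 and 5042 bp in the ATRA libraries and 713 and 1645 bp in the control libraries. The means were 5670 ± 887 bp and 1179 ± 659 bp (SD, n = 2), a log2 ratio of 1.61, and the groups did not overlap. All of the mark lay upstream. It ran from −6942 to −646 bp in ATRA replicate 1 and, in the longer of 2 peaks, from −5074 to −870 bp in ATRA replicate 2. The control libraries had shorter peaks within the same stretch, at −4416 to −3704 bp in replicate 1 and at −3272 to −1628 bp in replicate 2. The control peaks did not overlap each other. The call of a gain at the TSS rests on the ATRA peaks reaching within 1 kb of the start, and with a window of 2 kb it was lost, because the peak of control replicate 2 then counted.

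LCN2 (chr9, 130911350 to 130915732, plus strand) codes for a lipocalin that binds bacterial siderophores. Its region had 13199 and 3681 bp in the ATRA libraries and 2451 and 1516 bp in the control libraries. The means were 8440 ± 6730 bp and 1984 ± 661 bp (SD, n = 2), so the SD of the ATRA libraries exceeded the difference of 6456.5 bp. In ATRA replicate 1 a single peak of 9412 bp covered the whole gene, from −1274 to +8137 bp of the canonical start, while ATRA replicate 2 had only a peak of 1097 bp at the far end of that stretch, from +7026 to +8122 bp. Control replicate 1 had peaks of 322 and 279 bp in it and control replicate 2 had none. All 4 libraries had a peak over the neighboring BBLN start, of 2161 and 2584 bp in the ATRA cells and 1850 and 1516 bp in the control cells. In ATRA replicate 2 and both control libraries this peak made up most or all of the total. Without ATRA replicate 1 the difference was 1697.5 bp. The call at LCN2 therefore rests on unequal ATRA libraries and in part on the neighboring gene, and per Mb of peaks the ranges overlapped.

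**Figure D4:**
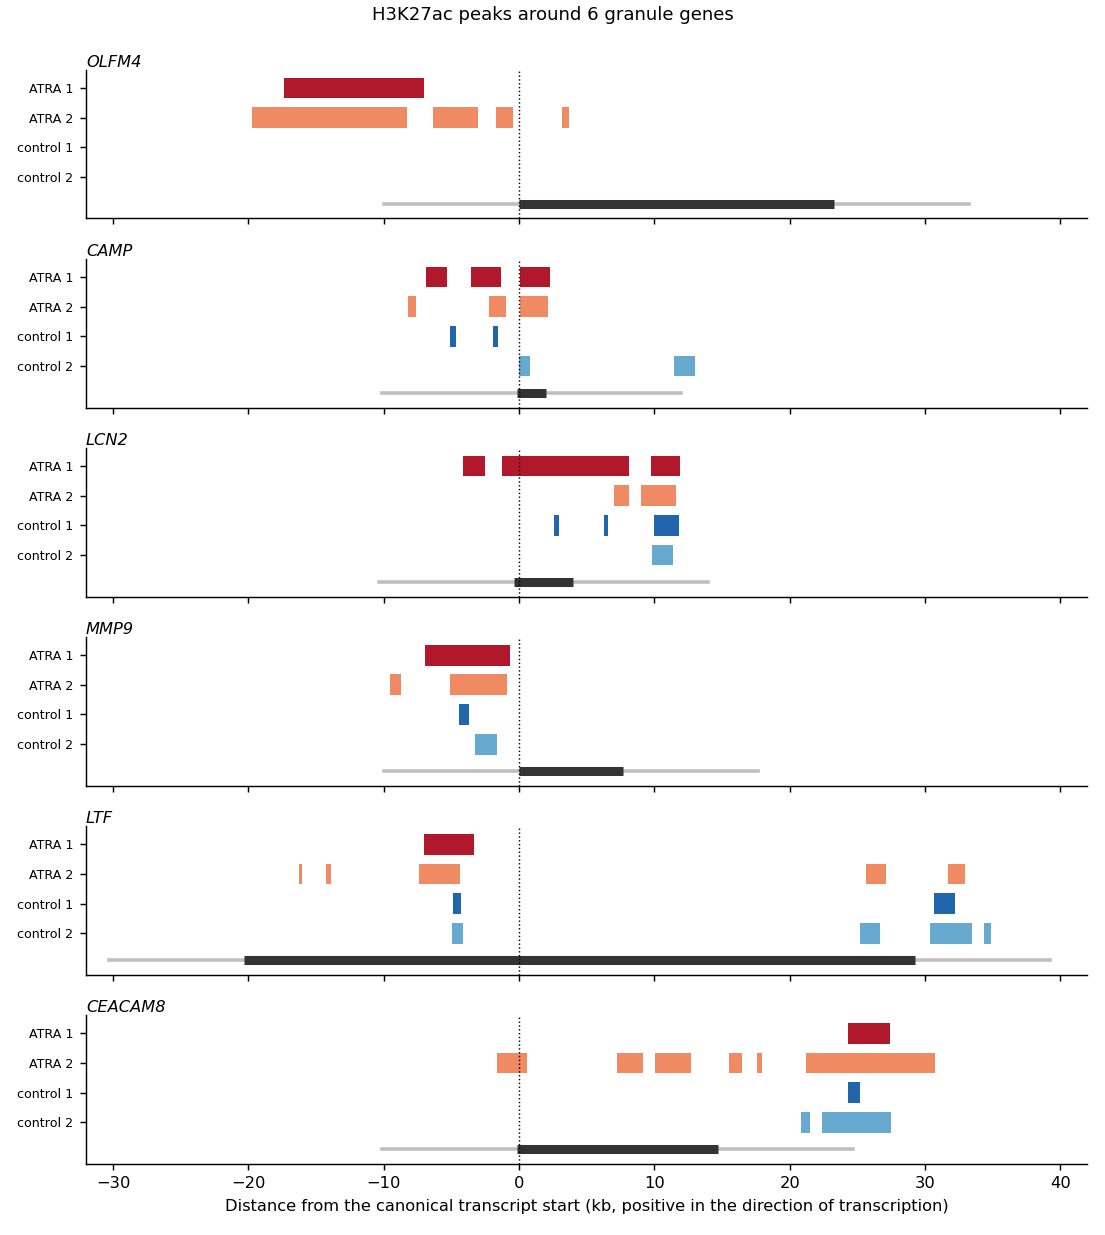
H3K27ac peaks (colored boxes) by distance in kb from the canonical transcript start (dotted line) at 6 granule genes, one row per library. Black bars are the annotated genes and gray lines the 10 kb on each side, and peaks that do not touch these are not drawn. OLFM4 has boxes in the ATRA rows alone, and at the CAMP start and at the upstream stretch shared by the ATRA rows of MMP9 and of LTF the ATRA boxes are longer than the control boxes there.

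LTF (chr3, 46477136 to 46526724, minus strand) codes for lactoferrin, the iron-binding protein by which secondary granules are commonly recognized. Its region had 3724 and 6443 bp in the ATRA libraries and 2213 and 5849 bp in the control libraries, and the groups overlapped. No library had a peak within 1 kb of either start, and the nearest peaks were 3334 and 4332 bp (ATRA) and 4278 and 4162 bp (control) from the canonical start. The peak at this upstream position was found in all 4 libraries, with a length of 3724 and 3089 bp in the ATRA cells and 622 and 817 bp in the control cells, which did not overlap. The remaining length lay mostly at or past the other end of the gene, where both control libraries and ATRA replicate 2 had peaks. LTF thus carried the upstream peak in both groups, and its start was marked by neither modification. The comparison of this single peak was made after its values were seen.

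CEACAM8 (chr19, 43084395 to 43099207, minus strand) had 350 and 11519 bp in the ATRA libraries and 377 and 3013 bp in the control libraries, with overlapping ranges. ATRA replicate 2 alone had a peak over the start, from −1593 to +577 bp, and peaks within the gene. H3K27ac at the start was thus seen in ATRA replicate 2 and H3K4me3 in ATRA replicate 1, and neither mark was seen there in a control library. A peak past the end of the gene, only part of which lay within the 10 kb counted, was present in all 4 libraries, with lengths of 3101 and 9532 bp in the ATRA cells and 923 and 5071 bp in the control cells.

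TCN1 (chr11, 59620273 to 59633962, minus strand) codes for haptocorrin, a protein that binds vitamin B12. Its region had 0 and 1835 bp under H3K27ac peaks in the ATRA libraries and 802 and 1936 bp in the control libraries. For this mark, it was the only granule gene with a lower mean in the ATRA cells (−451.5 bp, with overlapping ranges). A peak inside the gene was present in both control libraries, of 802 and 1936 bp, and in ATRA replicate 2, of 500 bp. ATRA replicate 2 also had a peak from −1460 to −126 bp of the start that no other library had.

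MMP8 (chr11, 102582527 to 102597781, minus strand) codes for neutrophil collagenase of the secondary granules. Its sole peak was one of 262 bp past the end of the gene in ATRA replicate 2, and the other libraries were at 0 bp. The nearest H3K27ac peaks to its start were 236913 and 14641 bp away in the ATRA libraries and 267031 and 63279 bp away in the control libraries.

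CRISP3 and ARG1 stayed unmarked. CRISP3 (chr6, 49695089 to 49712150, minus strand) codes for a cysteine-rich secretory protein, and ARG1 (chr6, 131791972 to 131905472, plus strand) for arginase 1, which human neutrophils store in granules. Both regions were at 0 bp for both marks in all 8 libraries. The nearest H3K4me3 peak to the CRISP3 start was 276607 to 278156 bp away in the 4 libraries, and the nearest H3K27ac peak 44884 to 280082 bp. For ARG1 the nearest H3K4me3 peak was 51652 to 53089 bp away in the 4 libraries. Its nearest H3K27ac peak was 54348 and 54635 bp away in the ATRA libraries, and 782205 and 781359 bp away in the control libraries. An H3K27ac peak at this distance was therefore found in both ATRA libraries and in neither control library, outside the region counted. It lay past the end of ARG1, because the unmarked region reaches farther than that upstream of the start. The H3K4me3 peaks of all 4 libraries lay on the same side at a similar distance. Whether these peaks belong to another gene was not tested.

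**Figure D5:**
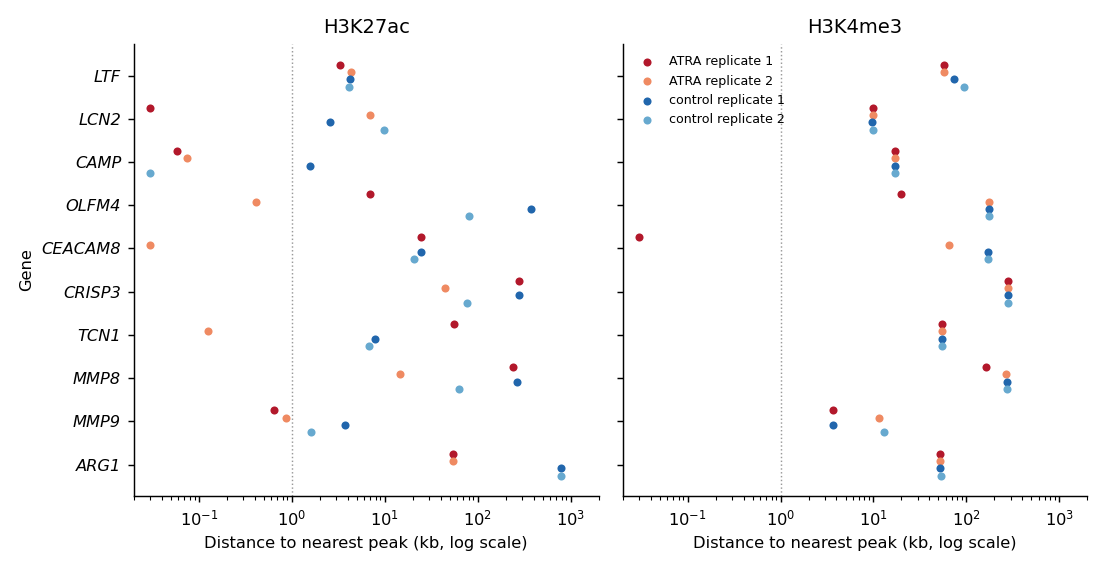
Distance in kb (log scale) from the canonical start of each granule gene to the nearest H3K27ac peak (left) and H3K4me3 peak (right), one point per library, with peaks over the start drawn at the left end of the axis and the dotted line at 1 kb. The nearest H3K4me3 peak was more than 1 kb away at each gene in each library except CEACAM8 in ATRA replicate 1.

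Peaks found in both replicates of a group were then compared between the groups, with replicate 1 peaks kept where they overlapped a replicate 2 peak by at least 1 bp. Near the 10 genes, 5 H3K27ac peaks were ATRA-specific, 2 were control-specific and 3 overlapped between the groups. The ATRA-specific peaks were those of 9412 bp at LCN2, 10324 bp at OLFM4, 6297 bp at MMP9, and 2237 and 2267 bp at CAMP. The OLFM4 peak was met by no control peak. The others were each met by shorter peaks that control replicate 1 (LCN2, the upstream peak of CAMP, and MMP9) or control replicate 2 (the peak over CAMP, and MMP9) had at places where the other control library had none, and such peaks do not count in this comparison. The control-specific peaks were those of 1591 bp past the end of LTF and of 802 bp inside TCN1, and the former was met by a peak of ATRA replicate 2. Genome-wide, 10229 H3K27ac peaks found in both replicates were ATRA-specific, 1814 were control-specific and 10349 ATRA peaks overlapped a control peak. Among all H3K27ac peaks found in both ATRA replicates, 49.7% were ATRA-specific. For H3K4me3 the numbers near the 10 genes were 0, 0 and 2, the latter at the starts of BBLN and SLC12A5, and 14.4% of all peaks found in both ATRA replicates were ATRA-specific.

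Known regulators of these genes had H3K4me3 at their canonical starts. All 8 of CEBPA, CEBPB, CEBPD, CEBPE, SPI1, GFI1, RUNX1 and RUNX3 had H3K4me3 within 1 kb of the canonical start in all 4 libraries, against 10648 of the 20136 genes, and 7 had H3K27ac there in all 4, against 6989 of the 20136. At the 5′ end used for the other lists, 6 had H3K4me3 in all 4 libraries, against 50.6% of all genes, and 2 in none. There 5 had H3K27ac in all 4, against 32.8%. H3K27ac over the region was higher in both ATRA libraries at 4 of the 8 (CEBPB, CEBPD, GFI1 and RUNX3), against 30.2% of all genes. It was lower at none, against 2.86%. RUNX3 had 36373 and 17756 bp in the ATRA libraries and 3926 and 1192 bp in the control libraries. CEBPE, the factor whose loss leaves neutrophils without secondary granules, had H3K27ac over 15700 and 14476 bp in the ATRA libraries and 11904 and 14576 bp in the control libraries, with overlapping ranges. H3K4me3 over the region was higher at 6 of the 8, against 27.9% of all genes.

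Among 8 primary granule genes, 5 had H3K4me3 at the TSS in all 4 libraries, against 50.6% of all genes, and 2 in none, against 46.1%. No region lacked the mark in all libraries, against 31.6%. PRTN3, which codes for proteinase 3, gained H3K4me3 at the TSS, a state of 0.268% of all genes. Its region had 2423 and 4897 bp in the ATRA libraries and 1577 and 1181 bp in the control libraries. H3K4me3 was higher in both ATRA libraries at 4 of the 8 regions (MPO, ELANE, PRTN3 and SERPINB1), against 27.9% of all genes, and H3K27ac at 4 (AZU1, PRSS57, SERPINB1 and CD63), against 30.2%. CTSG, the cathepsin G gene, was the 1 region lower for H3K27ac, against 2.86% of all genes. PRTN3, ELANE and AZU1 are close neighbors, so that their regions share peaks.

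A further list held 12 granule and late neutrophil genes. Of the 12, 10 had no H3K4me3 at the TSS in any library, against 46.1% of all genes, and 6 had none in the region, against 31.6%. H3K4me3 was higher at 3 regions (BPI, HP and LYZ), against 27.9% of all genes, and lower at 1 (MMP25), against 2.64%. The nearest H3K4me3 peak lay 9479 to 10495 bp from the LYZ start and 7381 to 9706 bp from the canonical MMP25 start. H3K27ac was higher at 4 regions (BPI, CHI3L1, HP and MMP25), near the 30.2% of all genes, and lower at 2 (LYZ and ORM1), against 2.86%. The nearest H3K27ac peak to LYZ was 4700 bp away in control replicate 2 and 10505 to 10721 bp away in the other libraries. CHI3L1, a chitinase-like protein of the secondary granules, had no H3K4me3 in any library and 6788 and 5716 bp of H3K27ac in the ATRA libraries against 947 and 1814 bp in the control libraries. ORM1 had 0 bp in both ATRA libraries and 4246 and 3215 bp in the control libraries. These lists were chosen with results of the study known, and the differences between them were not tested.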

How the data were processed

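HL-60 cells were profiled by ChIP-seq for H3K4me3 and H3K27ac, with 2 ATRA and 2 control replicates per mark. The authors removed adapters (cutadapt), used Bowtie for alignment to hg19 and MACS2 to call broad peaks in each library, with the human genome size and no fragment model. Versions were not given in the sources used here. Input libraries were made, and their use in the call is not stated. The deposited files hold, for each peak, its position in bp, a score that was not used, a fold enrichment and a −log10 p whose values these measures cannot take and which were not used, and a −log10 q, used only as a filter (at least 5). For overlapping peaks of a replicate pair, Spearman's rho across peaks was 0.06 to 0.18 for this −log10 q and 0.38 to 0.80 for peak length (12035 to 20578 overlapping peaks), so it was not read as a measure of a peak. Read depth is unknown, and no interval from counts could be given.

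Of 174751 peaks, 2 were mitochondrial and 0 ran past a GRCh37 chromosome end. Genes came from GENCODE release 44 mapped to GRCh37. Length under peaks was summed over the gene body and 10 kb on each side, with Python 3.11.15 and numpy 2.4.6, and a region was called higher when both ATRA libraries exceeded both control libraries. The overlap and call steps were tested on simulated data. Log2 ratios used group means plus 1000 bp. All 10 genes were named, and genes of the other lists where a call was made or the TSS state changed; CEBPE and RUNX1 were named besides, after their values were seen. The other alternatives are in the closing section. The members and lists were chosen with earlier results of these data known. Some genes of the list of other lineage markers are not reported here.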

Additional observations from a re-analysis of the deposited data

How the results depend on the processing

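With 2 libraries per group and no read depths, calls on single genes rest on ranges that do not overlap. Across alternatives, 159 covered-length differences of single genes moved by no more than the replicate SD, 19 by more, and 2 at called regions changed sign. A further 9 changed sign within that SD, at regions with overlapping ranges (LCN2 and MMP9 for H3K4me3, LTF, CEACAM8 and TCN1 for H3K27ac). Shifts from a left-out replicate cannot exceed that SD. Empty regions change only with a wider flank. Many of the 159 were thus preset. Of the counts, 102 stayed within 1.5 times their value and 34 did not. Counts below are of the 10 granule genes, and causes were not tested.

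H3K27ac was higher at 4 regions, against 30.2% of all genes. Without a flank the number was 2 (LTF and CAMP), against 23.6%, and with 50 kb 7, against 40.2%. With a −log10 q of at least 5 it was 1 (LTF), against 3.41%, and by number of peaks 2, against 13.9%. With 1 replicate left out at a time it was 4 to 7, against 33.3% to 50.7%. Leaving out a replicate loosens the call, so such counts could only stay or rise. The 7, against 50.7%, came without ATRA replicate 1. H3K27ac was lower at 0, against 2.86%, at 1 without a flank, against 3.21%, and at 2 per Mb of peaks, against 18.5%. With 1 replicate left out it was lower at 0 to 2, against 4.42% to 14.5%. At a −log10 q of at least 5 the mean differences reversed to −272.5 bp at CAMP and −822.5 bp at MMP9. H3K4me3 was higher at 0 regions, against 27.9%, and at 4 with 50 kb (LTF, CAMP, TCN1 and ARG1), against 34.1%. With 1 replicate left out it was higher at 0 to 2, against 29.7% to 54.2%. H3K4me3 was lower at 0, against 2.64%, and at 1 per Mb of peaks (LCN2), against 16.9%. With 1 replicate left out it was lower at 0 to 1, against 3.62% to 19.1%.

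H3K27ac at the TSS in both ATRA libraries held for 2 genes, against 40.7% of all genes. It held for 0 at the TSS base alone, against 26.7%, and for 0 with the −log10 q filter, against 1.21%. With 1 replicate left out it held for 2 to 5, against 40.7% to 46.8%. In both control libraries it held for 0, against 34.2%, and for 1 (CAMP) within 2 kb, against 35.8%. With 1 replicate left out that number was 0 to 1, against 34.2% to 41.9%. The gain at 1 gene, against 2.56%, became 0 at the TSS base alone (3.01% of all genes), within 2 kb (2.82%) and with the −log10 q filter (0.824%). With 1 replicate left out it was 1 to 4, against 4.02% to 6.4%. The 4, against 5.42%, came without ATRA replicate 1. For H3K4me3, the TSS marked in both ATRA libraries and the gain were each 0 to 1 with 1 replicate left out. The 1 was CEACAM8 without ATRA replicate 2, against 52.7% marked and 0.571% gained.

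With replicate 2 peaks kept, H3K4me3 peaks were ATRA-specific 1, control-specific 1 and overlapping 1. With a reciprocal overlap of 50%, 1 H3K4me3 and 1 H3K27ac peak overlapped. With the canonical transcript, an alternative chosen after seeing the data, H3K27ac was again higher at 4 regions, against 29.4% of all genes.

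The groups share replicate numbers, and the labels do not call them a batch. In 40 kb bins, same-numbered libraries deviated together in covered length (Pearson r across 75829 bins 0.22 for H3K4me3 and 0.56 for H3K27ac). For each mark, total covered length differed between the numbers in the same direction in both groups. The part of these totals in r was not tested. The replicate block compared the groups within each number. H3K27ac was then higher at 5 regions (LTF added), against 43.3% of all genes, and lower at 1 (TCN1), against 5.82%. H3K4me3 was higher at 1 (MMP9), against 37.3%, and lower at 0, against 4.68%. The H3K27ac gain at the TSS stayed at 1, against 2.56%.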
